A study of Mus musculus with 6 samples.

Results

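The vacuolar proton pump (V-ATPase) was examined here through 10 of its subunit genes, taken from the deposited table by their symbols: 6 of the peripheral V1 sector (Atp6v1a, Atp6v1b2, Atp6v1c1, Atp6v1d, Atp6v1e1 and Atp6v1h) and 4 of the membrane V0 sector (Atp6v0a1, Atp6v0b, Atp6v0c and Atp6v0d1). They are 10 of the 47643 genes in the table, and all 10 were found and passed the minimum mean of 1 FPKM (fragments per kilobase of exon, scaled by a factor for each library). The 6 RNA-seq libraries came from leukaemic granulocyte-macrophage progenitors (L-GMP) of C57BL/6 mice, 3 of them wild type (WT) and 3 labelled as a double knockout (KO) of Prkaa1 and Prkaa2. Prkaa1 and Prkaa2 code for the α1 and α2 catalytic chains of AMPK, a kinase that responds to falling cellular energy. The leukaemia's oncogene, the driver of any Cre, the sort gate, the age of the mice and whether replicates came from separate mice are not stated in the labels, so the spread behind each p-value may be only technical.

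The V-ATPase is a rotary machine. Its V1 sector hydrolyses ATP in the cytosol and turns an axle, and its V0 sector uses that turn to carry protons into lysosomes, endosomes and secretory granules. The pump sets the acidity that lysosomal hydrolases need, and on the lysosome surface it binds the Ragulator complex, a site where mTORC1 and, through AXIN and LKB1, AMPK are known to be activated. Many of its genes are known targets of TFEB and TFE3, which bind DNA elements with the core CACGTG.

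Whole reads recovered from the FPKM values came to between 11388919 and 16413874 per library. A member had between 126 reads (Atp6v0a1 in WT replicate 3) and 18989 (Atp6v0b in KO replicate 3) in a library. Prkaa1 stood at 2.01, 2.20 and 1.80 FPKM in the WT libraries and 1.11, 0.735 and 0.548 in the KO libraries, and Prkaa2 had 2 reads over WT and 4 over KO, so for Prkaa2 the libraries do not check the label. The deleted exons are not named in the labels. Among markers of the labelled cell type, Cd34 stood at 27.8 ± 0.84 FPKM (SD, n = 3 libraries) in WT and 3.51 ± 0.157 in KO, Fcgr3 at 129 ± 2.34 and 66.8 ± 4.48, and Kit at 0.250 ± 0.0654 and 1.43 ± 0.0243. Kit, a receptor by which normal progenitors are recognised, was low as RNA in both genotypes. Summed over 12 such progenitor markers, expression was 7848 to 8149 FPKM in WT and 16734 to 17030 in KO, and 9 of them reached a mean of 1 FPKM in WT and 11 in KO. That sum was mostly the granule proteases Ctsg (5423 FPKM in WT and 6362 in KO) and Elane (1758 and 7923). Of the 10 progenitor markers tested, 7 were higher and 3 (Cd34, Fcgr3 and Fcgr2b) lower, where 38.0% of all genes tested were higher and 40.4% lower. Csf3r (0.720 FPKM in WT and 2.09 in KO) passed the minimum mean through its KO values alone and had to differ. The factor that scales each library's FPKM did not follow its recovered reads. In WT replicate 1, with 11388919 reads, 9726 reads of Atp6v0b gave 373 FPKM. In KO replicate 2, with 12370867 reads, 16207 gave 693, so fewer reads made 1 FPKM in this deeper library. How the factor was set was not examined. FPKM values summed to between 463683 and 475654 in a WT library and between 649611 and 653819 in a KO library. Members and the other pump genes are therefore given below as deposited and, where they were tested, with libraries rescaled to equal sums, which moved the median log2 difference of all 9108 genes tested from -0.02 to -0.41.

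A stretch of 100 bases near the start site is printed for 4 members, because a start window without and with the TFEB core lets the reader set sequence beside response: 3 hold the core, and Atp6v1d, which holds none, had a log2 difference of 1.15, beside 1.10 for Atp6v0d1. RefSeq windows (GRCm38.p6, 250 bases before to 50 after the start) matched 7 of the 10 members by symbol. Each run is written 5′ to 3′ on the gene's strand, all 4 of them the minus strand, with CACGTG in capitals. Atp6v0b is shown from base -100 to -1 (chr4:117887330-117887429), Atp6v0d1 from -90 to 10 (chr8:105566055-105566154), Atp6v1a from -180 to -81 (chr16:44139340-44139439) and Atp6v1d from -100 to -1 (chr12:78861639-78861738).
Atp6v0b: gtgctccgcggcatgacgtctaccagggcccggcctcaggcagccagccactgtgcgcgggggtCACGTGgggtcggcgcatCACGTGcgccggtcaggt
Atp6v0d1: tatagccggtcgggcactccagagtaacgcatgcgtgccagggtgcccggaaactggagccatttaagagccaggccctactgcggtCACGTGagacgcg
Atp6v1a: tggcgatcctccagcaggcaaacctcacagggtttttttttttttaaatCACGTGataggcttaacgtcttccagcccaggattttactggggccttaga
Atp6v1d: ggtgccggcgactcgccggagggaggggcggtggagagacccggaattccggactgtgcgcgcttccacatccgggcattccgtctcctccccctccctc

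CACGTG reads the same on both strands. It occurred in the windows of 3 of the 7 members, starting at base -36 and again at -18 in Atp6v0b, at -3 in Atp6v0d1 and at -131 in Atp6v1a, and in 7.15% of all 32851 windows (8.09% of 27025 genes). The longer GTCACGTG, searched on both strands and overlapping the core, occurred in Atp6v0b and Atp6v0d1 and in 2.25% of all windows. Members with the core had log2 differences between KO and WT of 0.34 (Atp6v1a), 0.89 (Atp6v0b) and 1.10 (Atp6v0d1), and the 4 without it had 0.21 (Atp6v1e1), 0.69 (Atp6v0a1), 0.92 (Atp6v0c) and 1.15 (Atp6v1d). The ranges overlapped. A match is only a run of letters, and binding was not measured.

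As deposited, 8 of the 10 subunit RNAs were higher in KO and 2 (Atp6v1c1 and Atp6v1h) did not pass the test, limma on log2(FPKM + 1) at an adjusted p of 0.05. All 4 V0 members rose, between 1.85-fold and 2.19-fold, while the 6 V1 members ranged from 0.936-fold to 2.25-fold. Of all genes tested, 38.0% were called higher and 40.4% lower (78.4% in either direction), so a call in itself is common in this comparison. The members' median log2 difference was 0.74 against -0.02 for all genes. With libraries rescaled to equal sums, 6 members were higher, 3 lower and 1 did not pass, where 22.8% of all genes were higher and 59.1% lower. There the V0 members were all still higher and the V1 members divided into 2 higher (Atp6v1b2 and Atp6v1d), 3 lower (Atp6v1c1, Atp6v1e1 and Atp6v1h) and Atp6v1a without a call. Subunit genes outside the 10 members did not divide by sector in that way. With equal sums Atp6v0e (-0.23) and Atp6v0a2 (-0.90) of V0 were lower and Tcirg1 (0.93) of V0 higher. Of V1, Atp6v1f (0.24) and Atp6v1g1 (0.33) were higher and Atp6v1g2 (0.14) had no call. No member was lower as deposited by limma, nor at an unadjusted p under 0.05, nor by limma with voom weights on recovered reads (0 in each). Summed over the 10 members, expression was between 664 and 679 FPKM in the WT libraries and between 1113 and 1137 in the KO libraries.

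**Figure D1:**
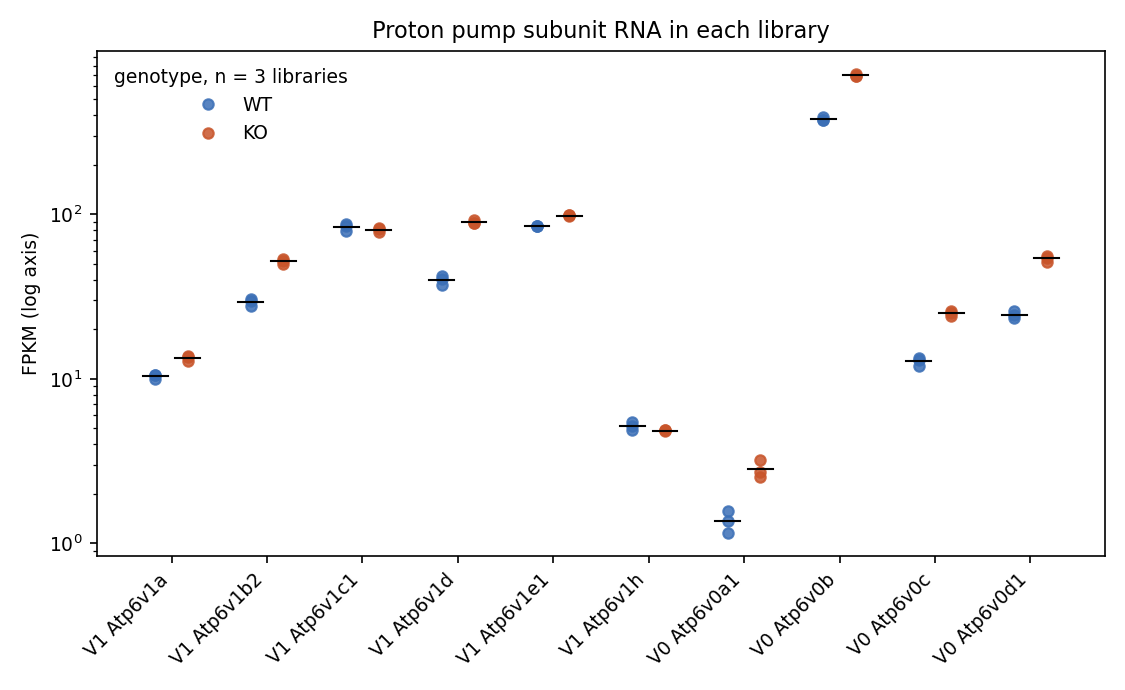
FPKM (log axis) of each subunit gene in the 3 WT and 3 KO libraries, points being libraries and bars the group means. The KO points lie above the WT points for every subunit but Atp6v1c1, where they overlap, and Atp6v1h, where they lie below; Atp6v0b is the most abundant in each genotype.

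In the catalytic hexamer of V1, Atp6v1a encodes the A subunit, which hydrolyses ATP, and Atp6v1b2 the B subunit, which alternates with it around the ring. Atp6v1a stood at 10.5, 10.6 and 10.03 FPKM in the WT libraries and 12.8, 13.6 and 13.8 in the KO libraries. The groups did not overlap, and the log2 difference was 0.34 (SE 0.05, limma adjusted p = 0.000608) but -0.10 (adjusted p = 0.138) with equal sums, where the call was lost and the sign turned. Atp6v1b2 stood at 30.6, 29.8 and 27.7 FPKM in WT and 51.9, 49.97 and 53.6 in KO. Every KO library lay above every WT library, the rise was 1.77-fold (log2 difference 0.80, SE 0.05, adjusted p = 3.21e-06), and with equal sums it was 0.34 (adjusted p = 0.000659). In the assembled pump A and B are present in equal number, yet their RNAs did not keep 1 ratio: Atp6v1b2 over Atp6v1a was 2.83 ± 0.075 in WT and 3.87 ± 0.200 in KO.

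Atp6v1d encodes the D subunit, the axle that turns inside the hexamer. It stood at 42.1, 40.6 and 37.1 FPKM in WT and 92.5, 89.1 and 88.2 in KO. The groups did not overlap, and the rise was 2.25-fold (log2 difference 1.15, SE 0.05, adjusted p = 6.15e-07) and 0.69 (adjusted p = 1.51e-05) with equal sums. Its order against Atp6v0d1, at 1.10, is not settled: without WT replicate 3 the log2 differences were 1.10 and 1.14, and without KO replicate 1 they were 1.13 and 1.14. Atp6v1e1 encodes the E subunit of the outer stalks, which hold the hexamer still against the rotor. It stood at 84.9, 84.7 and 84.5 FPKM in WT and 98.6, 97.0 and 99.2 in KO. The groups were tight and apart, but the difference was small and hung on the scaling: 0.21 on the log2 scale (SE 0.02, adjusted p = 0.000100) as deposited and -0.25 (adjusted p = 5.46e-05) with equal sums.

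The C and H subunits join the V1 stalks to the membrane sector and take part in the reversible separation of V1 from V0, C by leaving and H by silencing the freed V1. Atp6v1c1, the ubiquitous C gene, stood at 79.4, 86.9 and 84.4 FPKM in WT and 81.6, 82.6 and 77.9 in KO. The groups overlapped, with a log2 difference of -0.05 (95% confidence interval -0.15 to 0.05, adjusted p = 0.313). Atp6v1h stood at 5.51, 5.15 and 4.90 FPKM in WT and 4.80, 4.89 and 4.89 in KO. Its KO libraries lay just under the lowest WT library, and the log2 difference of -0.08 (95% confidence interval -0.23 to 0.07, adjusted p = 0.289) did not pass the test. With equal sums both were lower, Atp6v1c1 by a log2 difference of -0.51 (adjusted p = 7.58e-06) and Atp6v1h by -0.47 (adjusted p = 0.000388).

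In the V0 sector, Atp6v0b and Atp6v0c encode the c″ and c proteolipids of the rotating ring that carries the protons. Atp6v0b stood at 373, 375 and 390.0 FPKM in WT and 696, 693 and 716 in KO. All KO libraries lay far above WT, by 1.85-fold (log2 difference 0.89, SE 0.02, adjusted p = 6.45e-08), and with equal sums by 0.42 (adjusted p = 8.73e-07). Atp6v0c stood at 11.9, 13.4 and 13.1 FPKM in WT and 24.2, 25.8 and 25.1 in KO. It rose 1.96-fold without overlap (log2 difference 0.92, SE 0.06, adjusted p = 3.46e-06, and 0.47 with equal sums, adjusted p = 8.09e-05).

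Both proteolipid genes share sequence with other loci, Atp6v0c far more than Atp6v0b, which makes their levels less certain. Of the 50-base words in the principal Atp6v0c transcript, 32.5% also occur in the processed pseudogenes Atp6v0c-ps1 and Atp6v0c-ps2, and the treatment of reads with several matches is not given in the sources used here. Atp6v0c-ps1 had 6 reads over WT and 9 over KO. For Atp6v0b the same share of principal-transcript words is 2.42%. Of its exonic bases over all transcripts, 11.8% overlap Gm12841 on the opposite strand, a gene listed at 0 in all 6 libraries. The part of lost or shared reads in these levels was not tested.

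Atp6v0d1 encodes the d subunit, which sits on the ring and receives the axle. It stood at 24.6, 23.4 and 25.9 FPKM in WT and 51.3, 54.3 and 56.2 in KO. The groups were well apart, the rise being 2.19-fold (log2 difference 1.10, SE 0.05, adjusted p = 8.78e-07) and 0.64 with equal sums (adjusted p = 1.14e-05). Atp6v0a1 encodes the a1 isoform of the a subunit, through which protons enter and leave the ring. It stood at 1.58, 1.16 and 1.36 FPKM in WT and 3.21, 2.73 and 2.52 in KO. This least abundant member also rose without overlap, 2.06-fold (log2 difference 0.69, SE 0.10, adjusted p = 0.000582, and 0.38 with equal sums, adjusted p = 0.0128), from 396 reads over WT and 687 over KO.

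**Figure D2:**
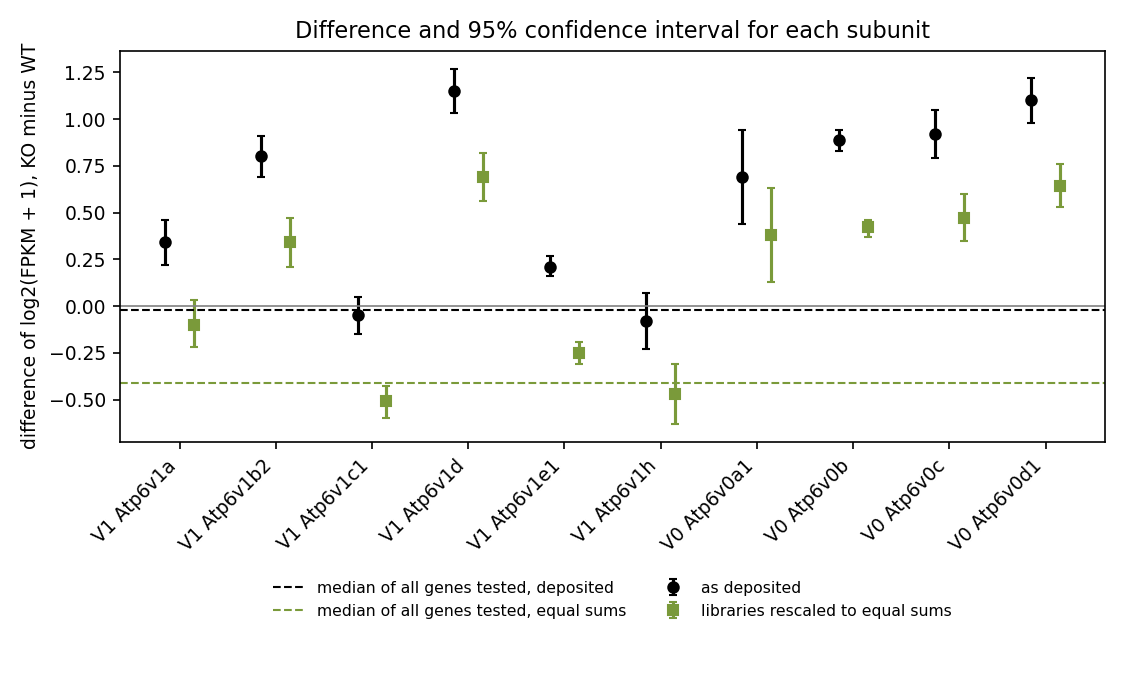
Difference of log2(FPKM + 1), KO minus WT, with its 95% confidence interval from limma for each subunit, as deposited (circles) and with libraries rescaled to equal sums (squares); dashed lines give the median of all 9108 genes tested. All 4 V0 members stay above 0 under both scalings, while the V1 members Atp6v1a and Atp6v1e1 change sign.

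Ratios between members within a library do not depend on the scaling of that library. Relative to Atp6v1a, all 4 V0 members stood above the whole WT range in all 3 KO libraries, by 1.43-fold (Atp6v0b), 1.52-fold (Atp6v0c), 1.60-fold (Atp6v0a1) and 1.70-fold (Atp6v0d1) on the means. Among V1 members the ratio rose for Atp6v1d, from 3.84 ± 0.154 to 6.73 ± 0.453, and for Atp6v1b2, as given above. It was lower in KO for Atp6v1c1 (8.05 ± 0.446 in WT and 6.03 ± 0.370 in KO), Atp6v1h (0.499 ± 0.0211 and 0.363 ± 0.0111) and Atp6v1e1 (8.16 ± 0.238 and 7.34 ± 0.323). None of the 9 ratios overlapped between genotypes. Of single genes, 39.1% lay wholly higher and 41.6% wholly lower in KO, but the share for ratios between genes was not taken. All 9 ratios have Atp6v1a as denominator, so they are not independent of each other. The ratios show unequal change between subunits and not that any one subunit stood still. With 3 against 3 libraries, an exact permutation test of a single ratio cannot give a p under 0.1.

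**Figure D3:**
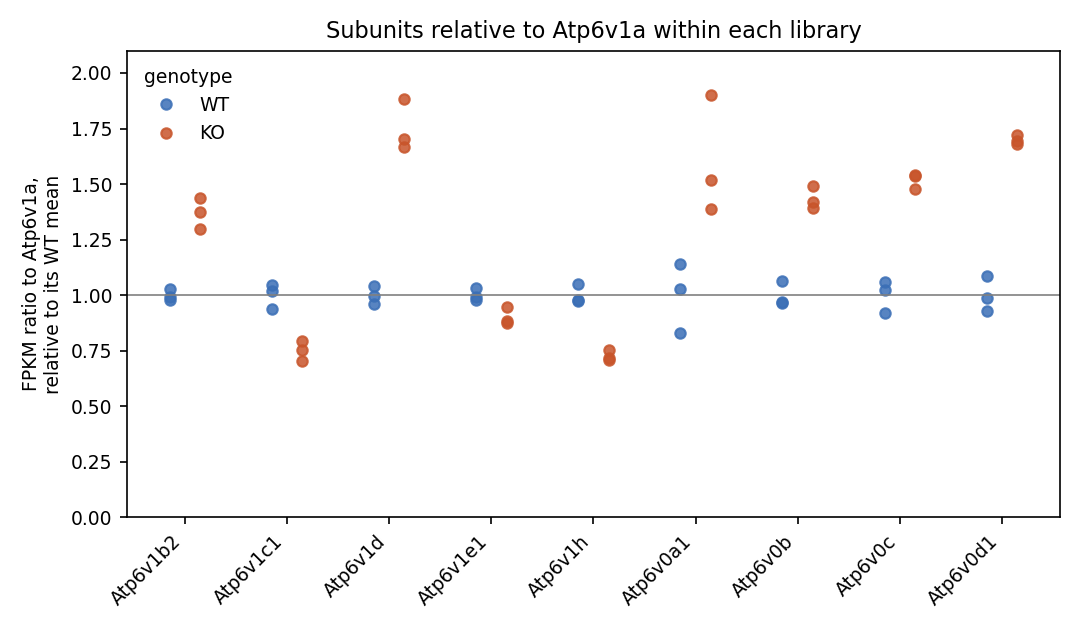
FPKM of each subunit divided by that of Atp6v1a in the same library and shown relative to its WT mean (grey line at 1), 3 libraries per genotype. Atp6v1c1, Atp6v1e1 and Atp6v1h lie below 1 in KO and the other 6 above it.

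The order of levels, which FPKM allows because it is per exonic length, put Atp6v0b first in both genotypes. In WT it was followed by Atp6v1e1 and Atp6v1c1, whose ranges overlapped, then Atp6v1d, Atp6v1b2, Atp6v0d1, Atp6v0c, Atp6v1a, Atp6v1h and Atp6v0a1, each apart from its neighbour. In KO, Atp6v1d stood above Atp6v1c1 and Atp6v0d1 above Atp6v1b2, the last pair with overlapping ranges. The order rests on the length by which each FPKM value was divided. For 8 members whole reads came out at the exonic length over all annotated transcripts, which for Atp6v1h is 9746 bases where its principal transcript has 2049. For Atp6v1c1 and Atp6v1d they did not, at 5601 and 4602 annotated bases, but did at searched lengths of 2097 and 1403, so the length behind their values is not known and their ranks are uncertain. Per kilobase of the principal transcript, Atp6v1h would stand at 24.7 in WT and 23.1 in KO, above Atp6v1a at 14.8 and 19.1. Atp6v0c would stand at 36.6 and 71.7, above Atp6v0d1 at 27.1 and 59.3.

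The members lie on 9 chromosomes (mm10, GENCODE M21). On the plus strand are Atp6v1h (chromosome 1, 5070018 to 5162529), Atp6v1b2 (chromosome 8, 69088646 to 69113711), Atp6v0a1 (chromosome 11, 101009452 to 101063719) and Atp6v1c1 (chromosome 15, 38661933 to 38692446). On the minus strand are Atp6v0b (chromosome 4, 117884326 to 117887333), Atp6v1e1 (chromosome 6, 120794305 to 120822793), Atp6v0d1 (chromosome 8, 105524465 to 105566047), Atp6v1d (chromosome 12, 78840725 to 78861638), Atp6v1a (chromosome 16, 44085402 to 44139705) and Atp6v0c (chromosome 17, 24163866 to 24169702).

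The remaining subunit genes fill in the pump. Of 15 listed, 8 passed the minimum mean, and of these 7 were higher and 1 lower as deposited, against 4 higher, 3 lower and 1 without a call with equal sums. The shares over all genes tested were 38.0% higher and 40.4% lower as deposited, and 22.8% and 59.1% with equal sums. Members of the list of 15 that passed only through their KO values had to differ, which applies to Atp6v1g2 (0.757 FPKM in WT and 1.27 in KO). Atp6v1f, the F subunit beside D on the axle, rose from 404, 407 and 422 FPKM to 672, 677 and 676 (log2 difference 0.71, adjusted p = 9.30e-08, and 0.24 with equal sums). Atp6v1g1, the G partner of E in the stalks, rose from 172, 167 and 168 FPKM to 298, 286 and 302 (0.80, adjusted p = 1.78e-07, and 0.33 with equal sums). Both keep all KO libraries above all WT libraries, and both share sequence with other annotated genes, in 18.2% and 19.2% of their principal transcripts' 50-base words.

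The tissue-restricted isoforms Atp6v1c2, Atp6v1g3 and Atp6v0a4 were listed at 0 in all 6 libraries. Atp6v1b1, the B1 isoform of kidney and epididymis, and Atp6v1e2, of testis, had 1 read each, in KO. Atp6v0d2, the d isoform known from osteoclasts and macrophages, had 2, 11 and 1 reads in the WT libraries and none in KO. Atp6v0e2 had 5 reads over WT and none over KO. For the B, C, d, E and e subunits nearly all reads thus came from Atp6v1b2, Atp6v1c1, Atp6v0d1, Atp6v1e1 and Atp6v0e.

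The a subunit was the exception, since 3 of its isoforms were read and they moved apart. Tcirg1 encodes a3, the isoform of lysosomes and of the osteoclast border, and rose from 15.7, 16.5 and 17.7 FPKM to 44.0, 45.3 and 45.1 (log2 difference 1.38, SE 0.05, adjusted p = 2.12e-07, and 0.93 with equal sums). Atp6v0a2, the a2 isoform known from the Golgi and early endosomes, fell from 3.77, 3.55 and 3.44 FPKM to 1.80, 2.31 and 2.31 (-0.55, SE 0.09, adjusted p = 0.000926, and -0.90 with equal sums). Neither pair of groups overlapped, and neither direction turned with the scaling. As a share of the summed a-isoform FPKM, Tcirg1 went from 77.0% ± 2.14 to 90.0% ± 0.269 and Atp6v0a2 from 16.6% ± 1.30 to 4.30% ± 0.539. Atp6v0a1 took 6.36% ± 1.05 in WT and 5.67% ± 0.775 in KO, with overlapping libraries. Of the exonic bases of Atp6v0a2, 9.86% are shared with 4930404A12Rik on the opposite strand.

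**Figure D4:**
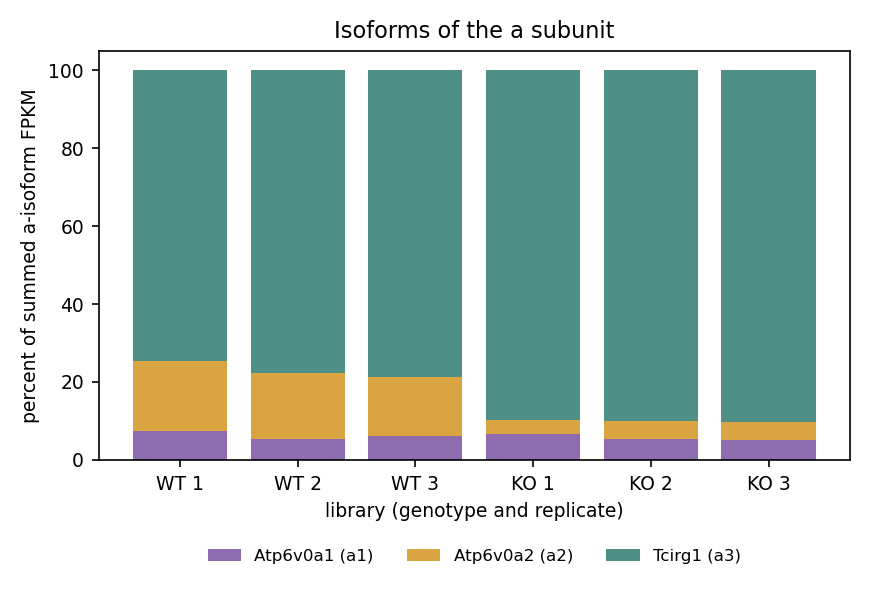
Share of the summed FPKM of the a-subunit isoforms taken by Atp6v0a1, Atp6v0a2 and Tcirg1 in each library (stacked bars, percent); Atp6v0a4 was at 0. Tcirg1 takes 74.6 to 78.6% in the WT libraries and 89.8 to 90.3% in the KO libraries.

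Accessory subunits and assembly factors did not move as 1 group. The accessory glycoproteins of V0 rose as deposited, Atp6ap2 (the prorenin receptor) from 60.4 ± 2.09 to 111 ± 2.62 FPKM (adjusted p = 4.27e-07, 0.40 on the log2 scale with equal sums) and Atp6ap1 from 131 ± 1.26 to 167 ± 4.45 FPKM (adjusted p = 1.25e-05, but -0.12 with equal sums). The small V0 subunit gene Atp6v0e behaved like Atp6ap1, with 254 ± 7.64 and 300.3 ± 3.50 FPKM, a log2 difference of 0.24 as deposited (adjusted p = 9.82e-05) and -0.23 with equal sums. In the list of 12 assembly and regulation genes, 7 passed the minimum mean, of which 4 were higher, 2 lower and 1 did not pass (4, 3 and 0 with equal sums). Over all genes tested, 38.0% were higher and 40.4% lower (22.8% and 59.1% with equal sums), so a call is common here too.

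Of the factors that build V0 in the endoplasmic reticulum, Ccdc115 fell from 69.5, 72.4 and 77.0 FPKM to 44.5, 42.6 and 46.2 (log2 difference -0.70, SE 0.05, adjusted p = 6.91e-06), and its partner Tmem199 from 105, 114 and 111 FPKM to 75.1, 75.1 and 80.1 (-0.51, SE 0.04, adjusted p = 1.60e-05). For both, all KO values lay below all WT values, and both were lower under either scaling (-1.17 and -0.98 with equal sums). Vma21, the chaperone of the same step, stood at 3.22 ± 0.151 and 3.12 ± 0.368 FPKM, a log2 difference of -0.04 (95% confidence interval -0.24 to 0.17, adjusted p = 0.703) as deposited and -0.40 (adjusted p = 0.00338) with equal sums, where it was called lower. The windows of Vma21 and Ccdc115 hold CACGTG as well, as do those of Mcoln1 and Clcn7 below and of Atp6v0e, 5 of the 27 other listed genes with a window.

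Among genes that act on the finished pump, Rogdi, a part of the rabconnectin complex that helps V1 rejoin V0, rose from 48.3, 50.6 and 46.1 FPKM to 128, 134 and 121 (log2 difference 1.38, SE 0.05, adjusted p = 2.33e-07, and 0.92 with equal sums). Its partners Dmxl1, Dmxl2 and Wdr7 lay under the minimum mean, at 0.111, 0.582 and 0.515 FPKM in WT and 0.0690, 0.793 and 0.178 in KO. Of the 4 listed genes of TLDc proteins, which bind V1, 3 rose under both scalings and Tldc2 was at 0 in all 6 libraries: Ncoa7 from 0.357 to 1.96 FPKM, Oxr1 from 1.82 to 3.40 and Tldc1 (now Meak7) from 1.64 to 3.84, with log2 differences of 1.13, 0.64 and 0.87 and adjusted p of 9.62e-06, 0.000457 and 0.000327. Ncoa7 passed the minimum mean through its KO values alone.

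Ion carriers that share the lysosomal membrane with the pump were read beside it. Of 10 listed, 6 passed the minimum mean, 4 were higher and 2 (Ostm1 and Tpcn1) did not pass, with 0 lower by limma, 0 at an unadjusted p under 0.05 and 0 with voom weights, against 4 higher, 1 lower and 1 without a call with equal sums. Beside these stand 38.0% higher and 40.4% lower of all genes tested, and 22.8% and 59.1% with equal sums. The ion gene lower with equal sums was Tpcn1, at 1.51 ± 0.0953 and 1.52 ± 0.115 FPKM, with a log2 difference of 0.01 (adjusted p = 0.923) as deposited and -0.28 (adjusted p = 0.0138) with equal sums. Under the minimum mean lay 2 genes that were lower when no minimum was set: Tpcn2, a lysosomal channel, from 1.26 ± 0.135 to 0.610 ± 0.181 FPKM (limma adjusted p = 0.0109), and Slc9a9, an endosomal exchanger, from 209 reads over WT to 6 over KO (adjusted p = 7.77e-05). In the same fit Clcn3 was higher, from 0.493 ± 0.117 to 0.868 ± 0.131 FPKM (limma adjusted p = 0.0319). Clcn5, at 0.389 and 0.535 FPKM, did not pass (adjusted p = 0.121). Mcoln1, the lysosomal calcium channel, rose from 8.46, 7.56 and 7.65 FPKM to 26.3, 23.8 and 26.0 (log2 difference 1.57, SE 0.06, adjusted p = 3.78e-07). Clcn7, the chloride-proton exchanger, rose from 10.4, 9.65 and 10.4 FPKM to 22.6, 23.2 and 23.6 (1.11, SE 0.05, adjusted p = 5.86e-07). Both stayed higher with equal sums, at 1.13 and 0.67. Ostm1, the subunit that Clcn7 needs, stood at 2.75 ± 0.428 and 3.27 ± 0.227 FPKM (log2 difference 0.19, 95% confidence interval -0.05 to 0.44, adjusted p = 0.125, and -0.16 with equal sums, adjusted p = 0.204). Tmem175, a lysosomal channel, rose from 9.03 ± 0.336 to 19.3 ± 0.573 FPKM (adjusted p = 1.07e-06, 0.58 on the log2 scale with equal sums), but 35.3% of its exonic sequence is shared with Dgkq on the opposite strand, so its level is uncertain.

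**Figure D5:**
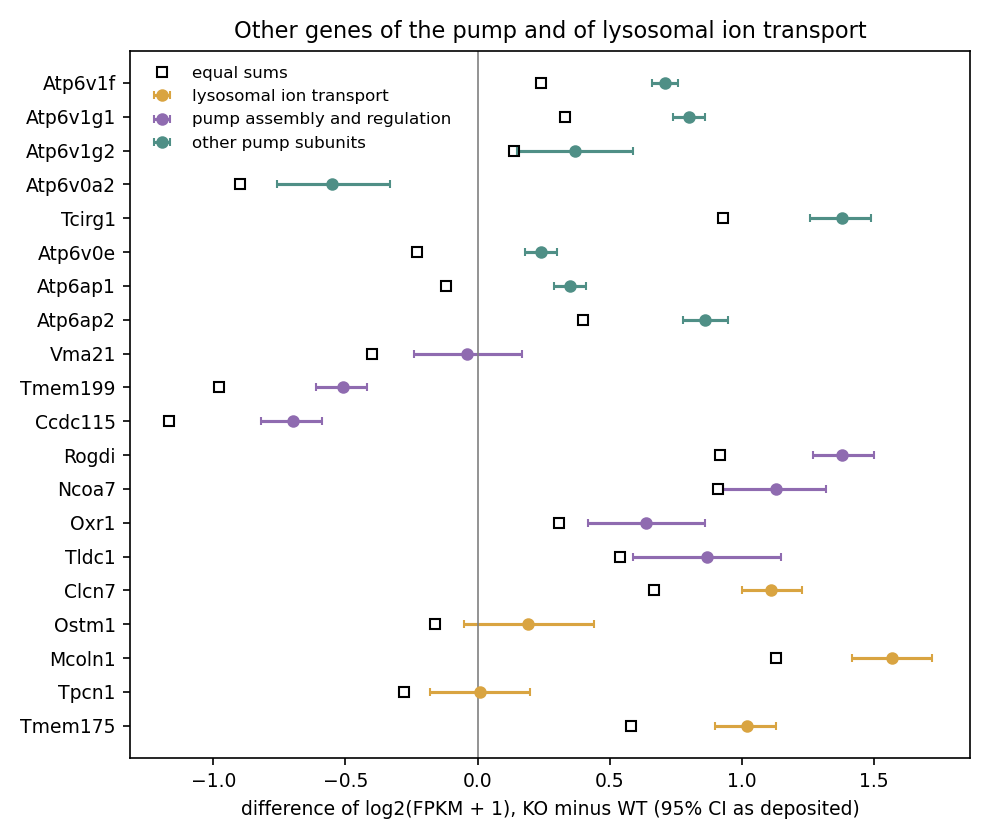
Difference of log2(FPKM + 1), KO minus WT, for other pump and lysosomal ion genes that passed the minimum mean, with 95% confidence intervals as deposited (filled circles, coloured by list) and the value with libraries rescaled to equal sums (open squares). Mcoln1, Tcirg1 and Rogdi lie farthest to the right, and Ccdc115, Atp6v0a2 and Tmem199 lie farthest to the left, below 0 under both scalings.

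Cell type markers moved alongside these values, and in bulk RNA fewer cells of a type and less RNA per cell cannot be told apart. Summed over 12 markers of maturing neutrophils, expression was 317 to 332 FPKM in WT and 71424 to 72819 in KO, and the markers whose mean reached 1 FPKM numbered 6 in WT and 8 in KO. That sum was mostly S100a8 (205 FPKM in WT and 52072 in KO) and S100a9 (67.7 and 14560). All 7 of these markers that were tested were higher, Camp only from 6.74 to 10.3 FPKM. Ltf (0.0959 FPKM in WT and 155 in KO) passed the minimum mean through its KO values alone and had to differ. Of all genes tested, 38.0% were higher and 40.4% lower. Ly6g and Cxcr2 stayed low in KO, at 0.837 and 0.643 FPKM, and Mmp9 had 9 reads over WT and 0 over KO. Over 11 basophil, mast cell and eosinophil markers the sum was 32.9 to 39.0 and 581 to 611 FPKM (4 and 10 markers at 1 FPKM or more, Cma1 at 0), and over 11 erythroid markers 19.6 to 22.9 and 92.2 to 92.5 (4 and 7 markers). Their part in the pump's values was not tested. For the cell types best known for abundant pump RNA, the defining osteoclast markers Ctsk, Dcstamp, Ocstamp and Oscar were at 0 in all 6 libraries, while the sum of the 9 osteoclast markers, mostly Acp5 and Nfatc1, was 13.5 to 14.2 FPKM in WT and 33.2 to 36.5 in KO. The macrophage markers C1qa, C1qc, Cd5l and Mrc1 were at 0 throughout, and the sum of 12 such markers, mostly Cd68, was 96.9 to 99.6 FPKM in WT and 59.99 to 61.2 in KO. Of the 2 macrophage markers tested, Cd68 was lower and Adgre1 higher. Adgre1 went from 3.34 ± 0.200 to 10.3 ± 0.436 FPKM (log2 difference 1.39, limma adjusted p = 8.96e-07, and 0.99 with equal sums). Of 6 B cell markers the sum, nearly all Cd79b, was 51.5 to 56.8 FPKM in WT and 1.94 to 3.25 in KO, and Pax5 was at 0. Of 6 T cell markers the sum was at most 0.663 FPKM, with Cd3e, Cd3g, Cd8a and Trac at 0.

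The genes outside these lists whose log2(FPKM + 1) followed the members' mean most closely over the 6 libraries were Anxa1 (Pearson r = 0.99997), Prr13 (0.99993) and Sqrdl (0.99993). They rose from 6.81 to 183 FPKM, from 264 to 651 and from 1.15 to 22.4. In all, 1198 tested genes had an r of at least 0.99. The libraries form 2 groups that lie apart, so these values describe 6 points in 2 clusters.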

How the data were processed

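The submitters' processing notes name CASAVA, bcl2fastq, STAR 2.5.3a, DESeq2 1.18.1 and the build mm10. Counter, annotation and strand setting: not given in the sources used here. The authors deposited FPKM values for 47643 genes in 6 libraries. Whole reads were recovered from each FPKM value times exonic length. This product was divided by its most frequent value in the library, taken as 1 read. They came out whole within 0.001 for 99.9% of 21132 genes above 0, 16481 of them at the GENCODE M21 length and the rest, Atp6v1c1 and Atp6v1d among them, at a searched length with the smallest read number the values allow. These reads served for depth and for 1 alternative.

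The test used log2(FPKM + 1) of genes whose mean reached 1 FPKM, in limma 3.58.1 (R 4.3.3), by a linear model of genotype with a mean-variance trend, two-sided, with Benjamini-Hochberg adjustment over 9108 genes at 0.05; the test was tried on simulated data. This scale understates the change of weakly expressed genes. Folds are ratios of mean FPKM. The members, the 3 lists of related genes, the marker lists and the tests were chosen with earlier results of these data known. All members, any gene of the 3 lists and the 3 genes most like the members' mean could be named. Shared 50-base words were sought in all GENCODE M21 transcripts, and start windows come from RefSeq (GRCm38.p6). Replicate numbers of WT and KO do not pair the libraries by the labels. Alternatives were another pseudocount, 2 other filters, 2 other scalings, a replicate block, each library left out, and voom weights on the recovered reads. Other tools were Python 3.11.15, pandas 2.3.3 and matplotlib 3.10.9. The values of 1 lysosomal ion gene and 1 B cell marker, counted in their lists, are not reported here.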

Additional observations from a re-analysis of the deposited data

How the results depend on the processing

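The 8 members called higher were 8 under every alternative but 2: 7 at a minimum mean of 5 FPKM, where Atp6v0a1 was no longer tested, and 6 with libraries rescaled to equal sums. Members called lower were 0 except with equal sums, where they were 3. There the log2 differences of Atp6v1a (-0.10) and Atp6v1e1 (-0.25) turned sign, and Atp6v1c1 (-0.51) and Atp6v1h (-0.47) passed the threshold as lower. The rescaling itself moved the median of all genes from -0.02 to -0.41. The other 125 values of single members kept their direction, where called, and their side of the threshold. With each library left out in turn, 8 members were higher and 0 lower, 15 other pump and lysosomal ion genes higher and 3 lower, and 3305 to 3380 of all genes higher and 3507 to 3603 lower. The 3 other pump genes called lower became 6 without a minimum mean, where 32 were tested in place of 21, and 7 with equal sums. Over all genes, 5769 were lower without a minimum mean, 2072 were higher and 2383 lower at a minimum mean of 5 FPKM, where 5211 were tested, and 2074 were higher with equal sums (3464 and 3676 as reported). The replicate block gave 8 members higher and 0 lower and changed no call among members or in the counts of other pump genes (15 and 3); for all genes it gave 3420 higher and 3620 lower. Same-numbered WT and KO libraries deviated together with correlations of 0.009, -0.012 and -0.017, so the numbers do not pair them. Voom weights on recovered reads, chosen after seeing the data, gave 8 and 0 members. That fit set its library sizes by median ratios of reads, so it is no check of the rescaling to equal sums. edgeR and DESeq2, planned on recovered reads, were not run, because the deposited values are FPKM. Depth limits Prkaa2 and the tissue-restricted isoforms, with 14 reads or fewer over a group.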
